A study of Mus musculus with 24 samples.

Results

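The comparison described here is that of low against atmospheric oxygen in C2C12 cells kept in differentiation medium, across all genes with a mean of at least 1 FPKM in either group. Of the 24043 genes in the deposited expression table, 11970 met this rule. C2C12 is an established line of mouse myoblasts, the mononuclear precursors of skeletal muscle, and stands for a single cell line rather than for muscle tissue. The normoxic group was cultured at 21% oxygen and the hypoxic group at 2% oxygen, both in medium with 2% horse serum and an insulin, transferrin and selenium supplement, and the labels name no genetic change in either. Each group had 2 RNA-seq libraries, A and B, which the design text calls biological replicates. The labels do not say whether A and B were grown on separate days, so the p-values measure the spread between these libraries, which may in part be technical. The days in differentiation medium and the start of hypoxia are not given in the sources used here. These are 4 of the 24 samples of the study. The 4 RNA-seq libraries from growth medium, which holds 10% serum, enter only the estimate of the spread, and the chromatin samples were not analysed here.

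When serum is withdrawn, myoblasts leave the cell cycle and switch on myogenin under the control of MyoD and Myf5. They then fuse into multinucleated myotubes and build the contractile apparatus. Low oxygen stabilises the hypoxia-inducible factors (HIF), transcription factors that are otherwise marked for destruction by oxygen-dependent prolyl hydroxylases. HIF is known for raising glucose uptake, glycolysis, erythropoietic and angiogenic signals and its own hydroxylases. Hypoxia is also known for holding back myoblast differentiation in culture.

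Expression is given as FPKM, that is, fragments scaled to transcript length and to the mapped fragments of the library, so levels can be set side by side between genes. Values are given library by library, normoxic A and B against hypoxic A and B, always with A first. A log2 change is the difference of log2(FPKM + 1) between the group means, hypoxia minus normoxia, followed by its standard error from limma, and for genes around 1 FPKM or lower it understates the change. The p-values were adjusted by Benjamini and Hochberg's method across the 11970 genes, and a gene is called at an adjusted p under 0.05. A fold is the ratio of mean FPKM and is left out where the lower group is near 0.

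The libraries had 15253 to 15672 genes above 0 FPKM. Relative depth was the inverse of the most frequent ratio of a library to hypoxic A, over genes above 0 and under 0.5 FPKM in both. It was 0.683 and 0.856 in normoxia and 1 (A) and 0.633 (B) in hypoxia, so the deepest and the shallowest library were the hypoxic pair. Those 2 libraries also stood apart in expression. Of the genes tested, 607 differed by more than 1 on the log2 scale between hypoxic A and B, against 61 between normoxic A and B, and the SD of the difference was 0.576 and 0.376. Genes of DNA replication and mitosis were higher in hypoxic B than in hypoxic A, as described further on. For this reason each hypoxic replicate is given by its own value throughout.

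Of the genes tested, 4562 (38.1%) were higher and 3409 (28.5%) lower in hypoxia. Counting only changes of 1 or more on the log2 scale, 1835 (15.3%) were higher and 1589 (13.3%) lower. These shares are the background against which the counts of each gene list are read. Among the 3424 genes called with a change of at least 1, 2817 (82.3%) lay at least 1 from the normoxic mean, on the same side, in both hypoxic replicates. The median change of all genes tested was 0.15, or 0.07 from replicate A alone and 0.21 from B alone. After median-of-ratios scaling of the libraries the share of calls that are higher went from 57.2% to 46.4%, so changes near this shift depend on the scaling.

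Both groups were in differentiation medium, but myotube markers were abundant in the normoxic group alone. Myogenin, the fusion factor myomaker (listed as Tmem8c), muscle creatine kinase, skeletal actin and embryonic myosin all lay above 140 FPKM in both normoxic libraries and below 7 FPKM in both hypoxic ones. Myoblast markers were present in hypoxia at reduced levels. The satellite cell factor Pax7 was at 15.9 and 15.1 FPKM in normoxia and 10.2 (A) and 8.96 (B) FPKM in hypoxia, and M-cadherin, Cdh15, at 82.5 and 91 FPKM in normoxia and 12.3 (A) and 12.5 (B) FPKM in hypoxia. Defining markers of fat cells (Plin1, Cidec, Lep) were listed at 0 in these 4 libraries, and so were epithelial Epcam and Krt18 and the T-cell marker Cd3e. A listed 0 does not show that a gene was silent, since the sterol synthesis gene Hmgcs1, which cells in general use, is listed at 0 as well. Endothelial Pecam1 and Cdh5 were under 0.1 FPKM and the bone factor Sp7 under 0.15 FPKM. Of 15 endothelial, blood and epithelial markers 1 was tested, the lysosomal and macrophage gene Cd68, at 1.76 and 2.46 FPKM in normoxia and 25.8 (A) and 42.8 (B) FPKM in hypoxia, while leukocyte Ptprc was at 0.0137 FPKM at most and macrophage Emr1 was listed at 0.

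The muscle program fell, and the sarcomere list had the largest median fall of the 30 lists examined. Of the 46 sarcomere genes examined, 45 were tested, and 44 were lower and 1 higher in hypoxia, against 28.5% lower and 38.1% higher over all genes tested (median log2 change -5.74, with -5.68 for A and -5.72 for B). All 23 tested genes of excitation and calcium handling were lower (median log2 change -4.24, with -4.66 for A and -4.27 for B), as were 14 of 15 genes of muscle energy buffering (median log2 change -3.81, with -4.04 for A and -3.83 for B). In the list of myogenic transcription factors and their partners, 14 of 17 were lower and none higher (median log2 change -2.52, with -2.96 for A and -2.09 for B). In these bulk samples, fewer myotubes and less RNA per myotube cannot be told apart.

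The transcription factors at the top of the program fell by different amounts. Myogenin, Myog, which drives terminal differentiation, was at 2576 and 2642 FPKM in normoxia and 4.49 (A) and 2.14 (B) FPKM in hypoxia (log2 change -9.30 ± 0.28, adjusted p = 7.43e-07). Mef2c, a partner of the myogenic factors, was at 26.9 and 28.5 FPKM in normoxia and 0.0141 (A) and 0 (B) FPKM in hypoxia (log2 change -4.83 ± 0.09, adjusted p = 1.29e-07), so almost no transcript was left in either hypoxic library. MyoD, Myod1, which commits cells to the muscle lineage, kept a higher remainder, at 180.5 and 172 FPKM in normoxia and 6.95 (A) and 11.8 (B) FPKM in hypoxia, an 18.8-fold fall (log2 change -4.13 ± 0.22, adjusted p = 9.40e-06). Its relative Myf5 was at 30.7 and 29.1 against 8.57 and 8.45 FPKM and fell 3.52-fold. Mef2a fell 8.53-fold (101 and 108 against 11.1 and 13.5 FPKM) and Mef2d 1.67-fold (40.4 and 40.9 against 24.2 and 24.5 FPKM). The homeobox factor Six4 (6.09 and 6.11 against 5.92 and 5.84 FPKM) and the cofactor Eya1 (4.43 and 4.56 against 4.602 and 4.55 FPKM) were not called. Of the Id genes, which encode inhibitors of MyoD, Id1 (48.5 and 46.7 against 4.497 and 9.45 FPKM) and Id3 (116 and 112 against 13.8 and 26.1 FPKM) were lower. Id2, at 39.5 and 35.6 against 26.2 and 38.9 FPKM, was not called. Inhibitors of MyoD outside the Id family are not covered by these values. The ranges of the groups did not overlap for any of the called factors, but this held for all 4562 higher and 3409 lower genes called. The folds given run from 1.67-fold for Mef2d to 787-fold for Myog, beside Mef2c near 0.

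The 12 genes with the largest falls mostly encode contractile proteins. They were Myl1, Mylpf, Tnnc2, Mb, Tnni2, Myog, Tnnt3, Mybph, Actc1, Tnni1, Acta1 and Atp2a1, each with a mean above 500 FPKM in normoxia and below 6 FPKM in hypoxia. Mylpf, the fast regulatory myosin light chain, was at 4673 and 4936 FPKM in normoxia and 6.12 (A) and 3.23 (B) FPKM in hypoxia (log2 change -9.77 ± 0.24, adjusted p = 3.14e-07), and Myl1, the essential light chain, at 3632 and 3577 FPKM in normoxia and 2.13 (A) and 1.67 (B) FPKM in hypoxia (log2 change -10.28 ± 0.28, adjusted p = 5.05e-07). The 250 bases before the annotated start of Mylpf are shown as an example of this group (chr7:127211358-127211607, plus strand, GRCm38.p6, from RefSeq), 5′ to 3′ on the gene's strand, with the E-box CAGCTG in capitals. E-boxes of this form are the kind of site that MyoD family proteins bind.
Mylpf: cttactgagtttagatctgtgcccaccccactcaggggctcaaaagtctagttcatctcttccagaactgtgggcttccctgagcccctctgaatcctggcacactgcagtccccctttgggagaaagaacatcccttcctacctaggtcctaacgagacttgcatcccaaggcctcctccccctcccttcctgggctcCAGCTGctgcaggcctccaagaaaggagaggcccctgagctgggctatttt

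CAGCTG reads the same on both strands. It occurred in this window in 13 of 35 (37.1%) sarcomere genes with a promoter sequence, 9 of 14 (64.3%) genes of excitation and calcium handling and 6 of 14 (42.9%) genes of energy buffering, but in 1 of 10 (10.0%) myogenic transcription factors, against 1050 of 8924 (11.8%) of all genes tested. Outside the muscle lists it was in 6 of 17 (35.3%) immediate early genes. A match of letters describes the window and is no evidence of binding.

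Not every contractile gene was silent at 2% oxygen. The tropomyosins Tpm1 (1520 and 1502 against 198 and 292 FPKM) and Tpm2 (754 and 782 against 106 and 155 FPKM), which nonmuscle cells also use, fell 6.17-fold and 5.896-fold and remained above 100 FPKM. Tpm3 was the exception of the list and rose 1.97-fold, from 80.7 and 76.8 to 141 (A) and 169 (B) FPKM (log2 change 0.96 ± 0.10, adjusted p = 1.71e-04). Desmin, Des, the muscle intermediate filament, was at 484 and 474 against 28.6 and 53.1 FPKM. The myosin heavy chain genes of the sarcomere list reached 155 FPKM in normoxia (Myh1) and were all under 1 FPKM in hypoxia. Embryonic Myh3 was at 149.8 and 146 FPKM in normoxia and 0.933 (A) and 0.417 (B) FPKM in hypoxia and neonatal Myh8 at 51.9 and 51.4 against 0.0308 and 0 FPKM. Titin, Ttn (32.4 and 39.7 against 0.104 and 0.0799 FPKM), and nebulin, Neb (64.05 and 77.7 against 0.0791 and 0.0641 FPKM), the giant scaffold proteins of the sarcomere, fell to about 0.1 FPKM or less.

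Genes of excitation and calcium handling fell by widely different amounts. The fast-fibre calcium pump Atp2a1 fell from 540.4 and 578 to 0.878 (A) and 0.484 (B) FPKM (log2 change -8.39 ± 0.15, adjusted p = 1.34e-07), and its widely expressed relative Atp2a2 was at 309 and 317 FPKM in normoxia and 36.8 (A) and 45.9 (B) FPKM in hypoxia, a 7.56-fold fall. The release channel Ryr1 was at 40.9 and 43.5 against 0.184 and 0.197 FPKM. Of the acetylcholine receptor subunits, the alpha subunit Chrna1 fell 5.25-fold (172 and 173 against 27.7 and 38.04 FPKM) and the beta subunit Chrnb1 3.58-fold (81.6 and 78.9 against 19.3 and 25.6 FPKM), and the delta and gamma subunits fell to below 2 FPKM (Chrnd 145 and 146 against 0.671 and 0.789 FPKM, Chrng 347 and 327 against 1.48 and 1.51 FPKM). The receptor-clustering protein Rapsn had the smallest fall of the list, 1.505-fold (30.96 and 27.7 against 15.9 and 23.1 FPKM, adjusted p = 0.0293), and this call was lost under 6 of 18 alternatives, among them without normoxic A, normoxic B or hypoxic A (adjusted p up to 0.147).

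In energy buffering, myoglobin Mb was at 1182 and 1040 FPKM in normoxia and 0.735 (A) and 0.357 (B) FPKM in hypoxia (log2 change -9.50 ± 0.14, adjusted p = 1.17e-07) and creatine kinase Ckm at 399.7 and 421 FPKM in normoxia and 0.855 (A) and 0.0563 (B) FPKM in hypoxia (log2 change -8.20 ± 0.24, adjusted p = 7.43e-07). The muscle enolase Eno3 was at 1029 and 1077 against 62.9 and 93.6 FPKM and fell 13.5-fold. Slc25a4, the muscle form of the mitochondrial ADP/ATP carrier, was the tested gene of this list that was not called (256 and 259.9 against 298 and 289.7 FPKM, adjusted p = 0.147).

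Genes of myoblast fusion did not move as a block, with 5 of 15 higher and 7 lower. The muscle-specific fusogens fell: myomaker Tmem8c was at 625 and 632 FPKM in normoxia and 2.08 (A) and 1.06 (B) FPKM in hypoxia (log2 change -7.97 ± 0.19, adjusted p = 2.82e-07) and myomerger, listed as Gm7325, at 402 and 401 against 0.787 and 0.226 FPKM. Cdh15 fell 7.002-fold. The 5 higher members, a share below the 38.1% of all genes tested, were the GTPase Rac1 (2.14-fold, 80.4 and 77.5 against 178 and 160.4 FPKM), its activators Dock1 (2.88-fold) and Dock5 (3.73-fold), the microtubule regulator Ckap5 (14.9 and 14.8 against 19.9 and 24.2 FPKM) and myoferlin Myof (1.86-fold, 23.5 and 23.7 against 46.6 and 40.9 FPKM), a relative of dysferlin. Dysferlin itself, Dysf, known for membrane repair, fell 13.6-fold (26.9 and 27.5 against 1.81 and 2.19 FPKM).

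**Figure D1:**
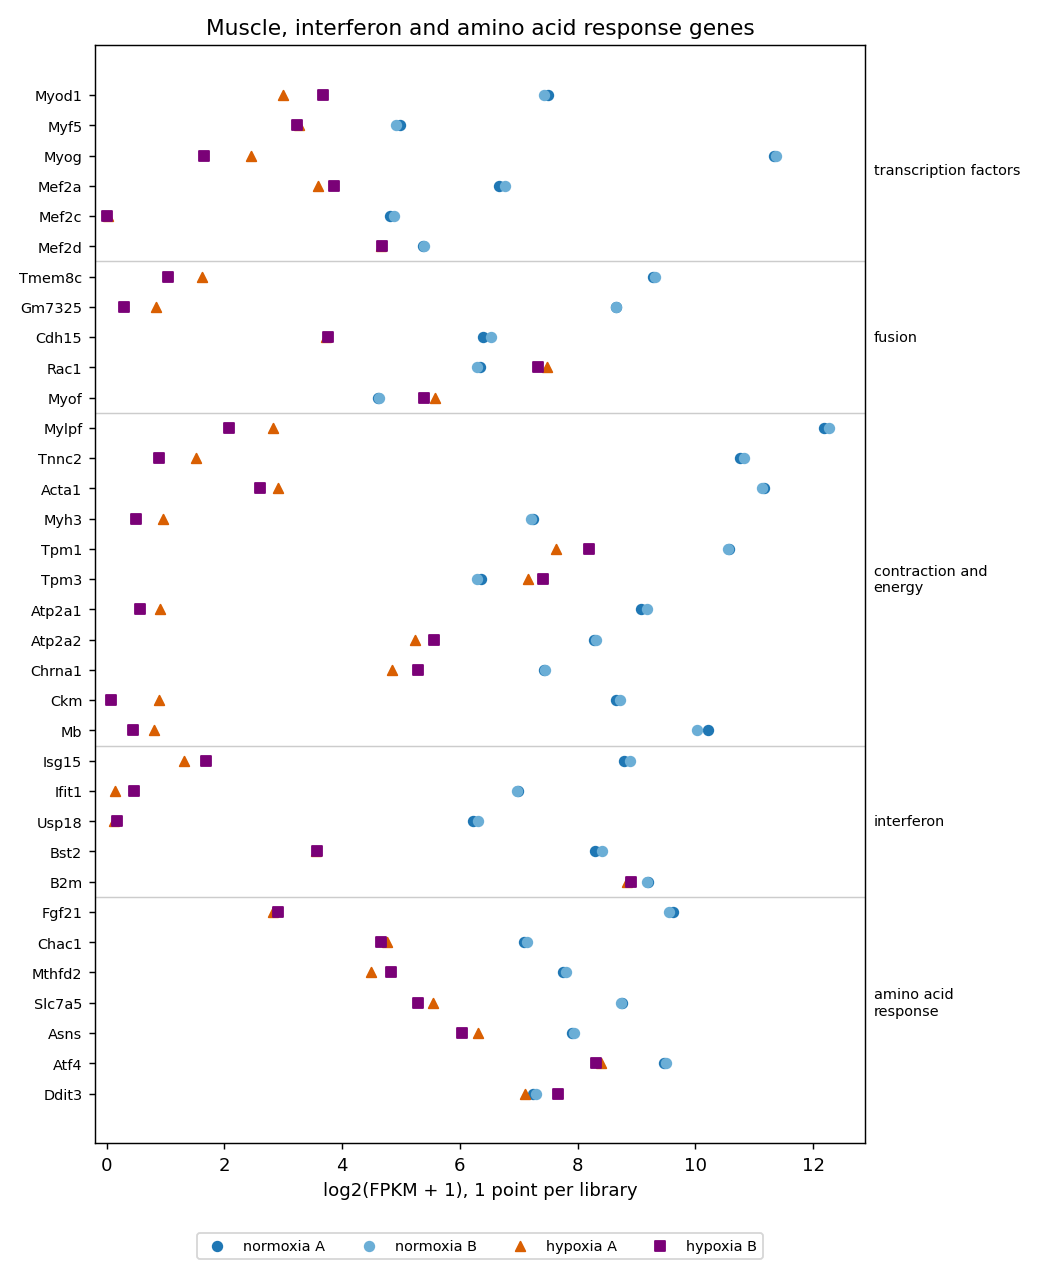
Level of selected muscle, interferon and amino acid response genes as log2(FPKM + 1), with 1 point for each of the 4 libraries (circles normoxia A and B, triangle hypoxia A, square hypoxia B). The hypoxic points of Myog, Mylpf, Ckm and Mb lie far to the left of the normoxic ones, those of B2m close to them, and those of Tpm3, Rac1 and Myof to the right of them.

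Oxygen-responsive genes rose in both replicates. Of 43 tested HIF target genes outside glycolysis, 38 were higher and 3 lower (median log2 change 2.54, with 2.72 for A and 2.37 for B), and of 25 genes of glycolysis and glucose transport 21 were higher and 1 lower (median log2 change 2.13, with 2.23 for A and 1.91 for B). With 1 lower gene among these 25, most of the muscle isoforms Eno3, Pgam2 and Pfkm, which fell, are not in the list. Its share of rises depends in part on this choice. Replicate A lay above B for 33 of the 43 targets and 22 of the 25 glycolytic genes, against 36.0% of all genes tested. The normoxic pair had the same order for 33 targets and 22 glycolytic genes, against 51.6% of all genes tested, so this order was not limited to the hypoxic pair.

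Glucose entry and each step to lactate were represented among the rises. The glucose transporter Slc2a1 was at 58.5 and 49.2 FPKM in normoxia and 599 (A) and 499.6 (B) FPKM in hypoxia, a 10.2-fold rise (log2 change 3.33 ± 0.12, adjusted p = 1.92e-06). Among the enzymes, the hexokinase Hk1 rose 10.97-fold (29.1 and 27.1 against 337 and 279 FPKM), the aldolase Aldoc 37.3-fold (1.77 and 1.88 against 66.5 and 69.8 FPKM) and the phosphoglycerate mutase Pgam1 10.8-fold (159 and 138 against 1714 and 1488 FPKM). The regulatory enzyme Pfkfb3, which makes an activator of phosphofructokinase, rose 12.3-fold. Lactate dehydrogenase Ldha was at 489 and 414 FPKM in normoxia and 2115 (A) and 1887 (B) FPKM in hypoxia (4.43-fold, log2 change 2.15 ± 0.12, adjusted p = 1.14e-05). The lactate exporter Slc16a3 rose 9.02-fold, and Pdk1, the kinase that inhibits pyruvate dehydrogenase, 4.87-fold (20.1 and 16.3 against 94.7 and 82.3 FPKM). Aldoa (1867 and 1803 against 2392 and 2065 FPKM), Slc16a1 (34.4 and 32.7 against 37.2 and 31.9 FPKM) and Pfkfb4 (4.76 and 4.55 against 2.75 and 4.36 FPKM) were not called. Slc2a4, the insulin-responsive transporter of muscle and fat, fell to below 1 FPKM (6.44 and 6.09 against 0.181 and 0.546 FPKM).

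The isoforms of several enzymes moved in opposite directions. Eno1 rose 3.41-fold and Eno2 5.75-fold while muscle Eno3 fell, and Pgam1 rose while muscle Pgam2 fell from 46.8 and 48.3 to 0.246 (A) and 0 (B) FPKM. Pfkl (7.96-fold) and Pfkp (5.101-fold) rose while muscle Pfkm fell 4.91-fold (158 and 159 against 34.5 and 30.2 FPKM). The promoter of Ldha is shown (chr7:46845554-46845803, plus strand, GRCm38.p6, from RefSeq), with the core of the hypoxia response element, ACGTG, and its reverse complement in capitals. Its 5 matches count both strands of the palindrome CACGTG.
Ldha: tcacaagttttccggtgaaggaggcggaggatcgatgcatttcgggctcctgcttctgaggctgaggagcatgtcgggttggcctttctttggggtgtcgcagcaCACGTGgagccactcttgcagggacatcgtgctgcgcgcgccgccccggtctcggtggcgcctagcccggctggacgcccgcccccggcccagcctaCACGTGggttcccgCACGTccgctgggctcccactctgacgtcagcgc

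ACGTG, searched on both strands, was found in 8 of 23 (34.8%) glycolytic genes, 15 of 31 (48.4%) of the other HIF targets and 7 of 13 (53.8%) genes of HIF factors and oxygen sensors, against 2002 of 8924 (22.4%) of all genes tested. Shares like that of the glycolytic genes were also found in lists outside the HIF pathway, as in 7 of 20 (35.0%) genes of endoplasmic reticulum chaperones and sensors and 8 of 22 (36.4%) Polycomb and DNA methylation genes. Sites further upstream, inside introns or downstream of the start lie outside the 250 bases searched.

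Among the other targets, Cxcl12, a chemokine, had the largest rise, from 2.03 and 1.70 to 193 (A) and 128 (B) FPKM (log2 change 5.79 ± 0.18, adjusted p = 9.00e-07), followed in the list by Selenbp1 (5.86 and 4.18 against 170.3 and 102 FPKM, 27.1-fold) and Ankrd37 (7.33 and 4.97 against 172 and 126 FPKM, 24.3-fold). Carbonic anhydrase 9, Car9, which handles acid outside the cell, rose 10.6-fold (83.2 and 62.97 against 886 and 662 FPKM) and Ndrg1 11.1-fold (179.9 and 149.5 against 2237 and 1422 FPKM). The mitophagy receptors Bnip3 and Bnip3l rose 4.44-fold and 4.98-fold, and the metallothioneins Mt1 and Mt2 11.7-fold and 6.33-fold. The collagen prolyl hydroxylases P4ha1 and P4ha2 rose 5.72-fold and 14.98-fold, the lysyl hydroxylases Plod1 and Plod2 8.92-fold and 5.95-fold, and the crosslinking enzyme Lox 10.2-fold.

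A small set of the list went the other way. Stc2, a secreted glycoprotein, fell 10.8-fold (17.4 and 18.5 against 1.65 and 1.67 FPKM), the transferrin receptor Tfrc 1.58-fold (72.2 and 69.2 against 38.3 and 50.9 FPKM) and the pseudokinase Trib3 2.62-fold (119.8 and 119.8 against 52.8 and 38.8 FPKM). Stc2 and Trib3 are also known as targets of ATF4, whose genes are described further on. The angiogenic factor Vegfa was at 332 and 309.7 FPKM in normoxia and 429.9 (A) and 309.6 (B) FPKM in hypoxia (log2 change 0.19 ± 0.15, adjusted p = 0.297). Hypoxic B lay at the level of the lower normoxic library, hypoxic A above them, and the sign of the change turned after median-of-ratios scaling (-0.02).

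The oxygen sensors themselves were mixed. The hydroxylase genes Egln1 (22.2 and 21.4 against 183 and 129.5 FPKM, 7.18-fold), Egln2 (1.62-fold) and Egln3 (214 and 180.5 against 420.2 and 333 FPKM, 1.91-fold) were higher, as was Vhl (2.11-fold), which marks hydroxylated HIF for destruction. The factor Hif1a was lower (57.2 and 59.4 against 39.5 and 35.3 FPKM, 1.56-fold), with its partner Arnt (1.43-fold) and the asparagine hydroxylase Hif1an (21.7 and 22.6 against 10 and 9.17 FPKM, 2.31-fold). HIF activity is known to be set at the protein level, which was not measured here. Of the oxygen-dependent histone demethylases, Kdm3a rose 5.36-fold (16.2 and 15.6 against 84 and 86.5 FPKM), Kdm4b 3.15-fold and Kdm5b 2.46-fold. The H3K27 demethylases Kdm6a (10.4 and 10.6 against 8.13 and 8.54 FPKM) and Kdm6b (29.5 and 27.8 against 32.1 and 27.01 FPKM) were not called.

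Respiratory genes fell modestly and broadly. Of 75 nuclear genes for subunits of the respiratory chain and ATP synthase, 60 were lower and 4 higher (median log2 change -0.69, with -0.68 for A and -0.64 for B), and of 35 genes of the citrate cycle, pyruvate dehydrogenase and fat oxidation 24 were lower and 2 higher. Cox4i1 was at 568 and 597 FPKM in normoxia and 385 (A) and 395 (B) FPKM in hypoxia (log2 change -0.58 ± 0.09, adjusted p = 0.00156) and the ATP synthase subunit Atp5g1 fell 3.46-fold (402 and 393 against 106 and 124 FPKM). The subunit genes that rose were Ndufv3, Cox6a1, Ndufa8 and Ndufb10. Cox6a1 was at 195 and 191 against 599.9 and 659 FPKM (log2 change 1.70 ± 0.12, adjusted p = 2.71e-05), while its muscle isoform Cox6a2 fell from 495 and 425 to 18.2 (A) and 11.6 (B) FPKM and the muscle isoform Cox8b from 325 and 401 to 0 (A) and 0.869 (B) FPKM. In the mitochondrial matrix, the dihydrolipoamide dehydrogenase Dld fell 5.15-fold (167 and 174 against 30.7 and 35.4 FPKM), and the fat oxidation genes Cpt1a (4.14-fold, 6.21 and 6.29 against 22.4 and 29.4 FPKM) and Acadm (2.07-fold) rose. Acadl, which acts beside Acadm on longer chains, fell 3.25-fold.

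**Figure D2:**
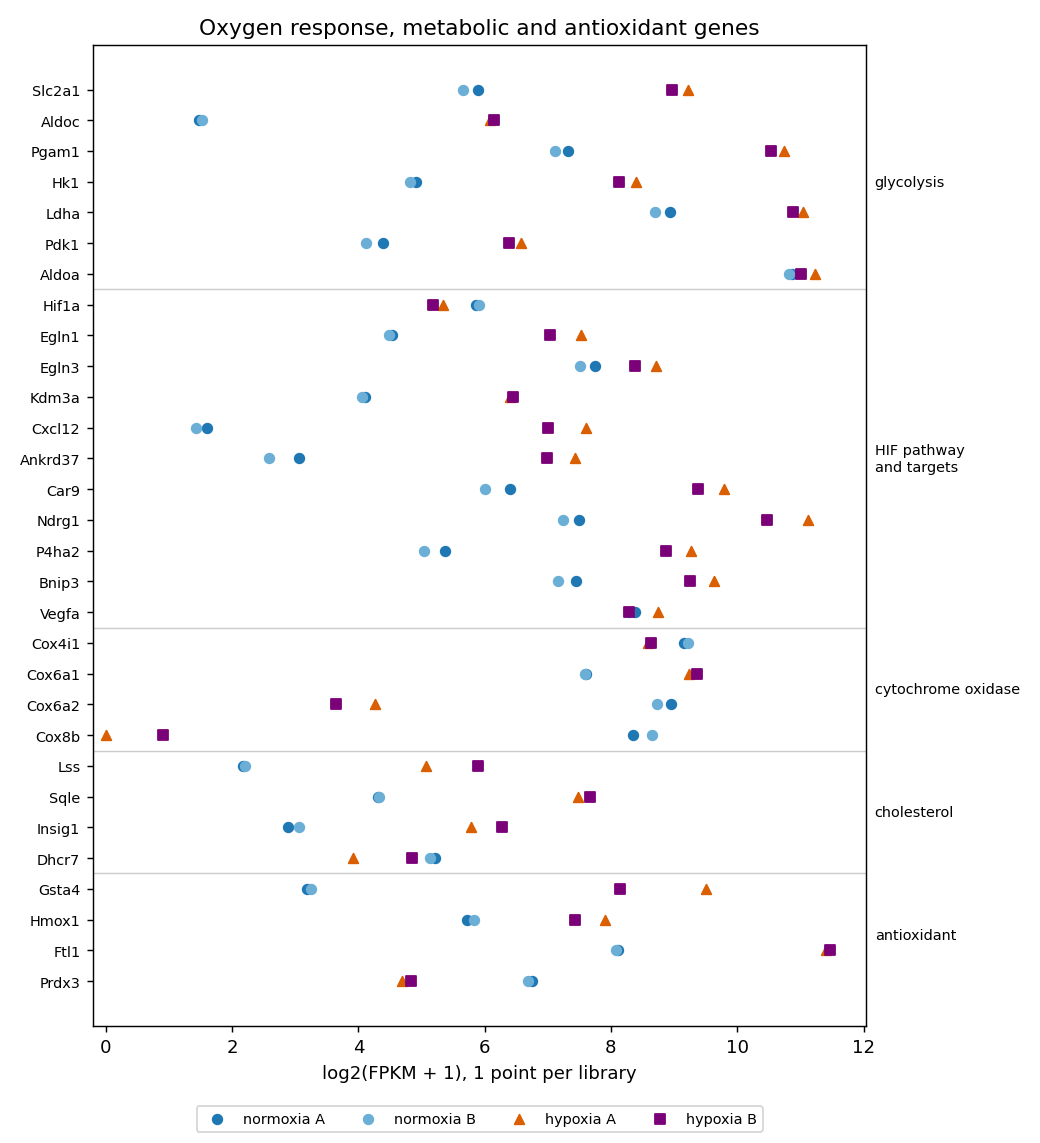
Level of selected glycolytic, oxygen response, cytochrome oxidase, cholesterol and antioxidant genes as log2(FPKM + 1), with 1 point for each library (circles normoxia A and B, triangle hypoxia A, square hypoxia B). Hypoxic points lie to the right of the normoxic ones for Slc2a1, Cxcl12, Car9 and Ftl1 and to the left for Hif1a, Cox6a2, Cox8b, Dhcr7 and Prdx3, and the points of Vegfa overlap.

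Interferon-stimulated genes, which encode antiviral and antigen-processing proteins, were expressed in normoxia and low or nearly absent in hypoxia. Of 30 interferon and chemokine genes, 24 were lower and 0 higher (median log2 change -3.03, with -3.25 for A and -2.88 for B). The chemokine Cxcl12, which rose, was counted with the HIF targets and not in this list. The ubiquitin-like protein Isg15 was at 442 and 476 FPKM in normoxia and 1.49 (A) and 2.23 (B) FPKM in hypoxia (log2 change -7.34 ± 0.20, adjusted p = 4.89e-07), the RNA-binding Ifit1 at 125 and 124 against 0.106 and 0.378 FPKM (log2 change -6.67 ± 0.12, adjusted p = 1.36e-07) and the Isg15 protease Usp18 at 73.5 and 78.5 against 0.0825 and 0.1304 FPKM (log2 change -6.12 ± 0.10, adjusted p = 1.17e-07). The factors that carry the interferon signal fell with them: Stat2 5.999-fold (54.8 and 54.3 against 7.304 and 10.9 FPKM), Irf9 9.50-fold (51.8 and 51.1 against 5.42 and 5.41 FPKM) and Irf7 from 51.3 and 49.3 to 1.01 (A) and 1.35 (B) FPKM. Class I antigen genes, which are only partly interferon-driven, hardly moved: B2m fell 1.24-fold (584 and 576 against 457 and 478 FPKM), and H2-K1 (226 and 215 against 236 and 236 FPKM) and H2-D1 (163 and 151 against 161 and 158 FPKM) were not called. The chemokines Cxcl1, Cxcl5, Ccl2 and Ccl5 were not called, and Ccl2 was at 7.58 and 10.2 against 7.83 and 20.3 FPKM. The promoter of Ifit1 is shown (chr19:34640639-34640888, plus strand, GRCm38.p6, from RefSeq), with 3 matches to GAAANNGAA, the core of the interferon response element, or to its reverse complement in capitals.
Ifit1: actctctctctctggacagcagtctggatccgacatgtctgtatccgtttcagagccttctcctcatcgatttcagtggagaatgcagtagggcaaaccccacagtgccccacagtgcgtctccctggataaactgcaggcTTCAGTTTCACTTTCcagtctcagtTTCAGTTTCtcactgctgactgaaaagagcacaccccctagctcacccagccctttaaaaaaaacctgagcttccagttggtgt

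GAAANNGAA on either strand was present in 9 of 22 (40.9%) of these genes with a promoter sequence, against 545 of 8924 (6.11%) of all genes tested and 207 of 2547 (8.13%) of those called lower.

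Genes of the amino acid response, which the transcription factor ATF4 switches on, formed a further group of falls, with 22 of 28 lower and none higher (median log2 change -1.68, with -1.60 for A and -1.79 for B). Fgf21, a secreted metabolic hormone, had the largest, from 785 and 751 to 6.04 (A) and 6.52 (B) FPKM, 122-fold (log2 change -6.72 ± 0.18, adjusted p = 4.40e-07). Cystathionine gamma-lyase, Cth, fell 11.4-fold (52.9 and 51.1 against 4.26 and 4.86 FPKM), the mitochondrial folate enzyme Mthfd2 8.99-fold (215 and 224 against 21.4 and 27.4 FPKM) and the large neutral amino acid transporter Slc7a5 10.2-fold (432 and 425 against 45.5 and 38.1 FPKM). Of the serine pathway, Phgdh fell 3.92-fold and Psph 4.97-fold, and asparagine synthetase Asns fell 3.36-fold. Atf4 itself was at 705 and 722 FPKM in normoxia and 334 (A) and 316 (B) FPKM in hypoxia, a 2.19-fold fall (log2 change -1.13 ± 0.08, adjusted p = 3.30e-05). Members that were not called included the factor Ddit3 (151 and 155 against 136 and 203 FPKM; log2 change 0.12 ± 0.19, adjusted p = 0.591), which lay above normoxia in hypoxic B and below it in A, and the cytokine Gdf15 (103 and 107 against 33.8 and 129.7 FPKM), low in A alone. Chac1, a glutathione-degrading enzyme, fell 5.47-fold (135 and 139 against 25.99 and 24.2 FPKM). Its promoter (chr2:119350992-119351241, plus strand, GRCm38.p6, from RefSeq) holds 1 match to TGATGNAA, the form of the ATF4 composite element searched, in capitals.
Chac1: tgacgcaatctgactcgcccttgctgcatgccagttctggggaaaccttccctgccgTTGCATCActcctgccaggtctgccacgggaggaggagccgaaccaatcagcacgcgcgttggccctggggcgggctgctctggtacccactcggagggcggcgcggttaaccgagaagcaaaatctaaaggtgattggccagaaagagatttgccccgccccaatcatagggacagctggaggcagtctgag

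On either strand TGATGNAA was present in 8 of 23 (34.8%) of the amino acid response genes with a promoter sequence and in 175 of 8924 (1.96%) of all genes tested. Chaperones and sensors of the endoplasmic reticulum, the other arm often read beside ATF4, did not follow it: 13 of 23 were higher and 5 lower (median log2 change 0.47, with 0.40 for A and 0.51 for B). The lectin chaperone Calr was at 414 and 392 against 739.5 and 849 FPKM, Hsp90b1 rose 2.85-fold (155 and 138 against 402 and 433 FPKM) and Sdf2l1 6.84-fold (6.16 and 5.46 against 38.3 and 41.2 FPKM). Hspa5, the main chaperone, was not called (406 and 415 against 346 and 394 FPKM), and the sensors Atf6 (3.90-fold, 40.2 and 42.1 against 10.8 and 10.3 FPKM) and Ern1 (1.67-fold) and the factor Xbp1 (2.08-fold) were lower, while the kinase Eif2ak3, which acts upstream of ATF4, rose 3.54-fold (2.67 and 2.905 against 9.94 and 9.83 FPKM).

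Cholesterol synthesis rose. Of 23 tested genes 21 were higher and 1 lower (median log2 change 2.21, with 1.93 for A and 2.47 for B), and replicate B was above A for all 23, against 63.3% of all genes tested. The cyclase Lss rose 12.7-fold (3.53 and 3.61 against 32.6 and 58.3 FPKM), the epoxidase Sqle 10.04-fold (18.9 and 19.02 against 178 and 203 FPKM) and the regulator Insig1 9.51-fold (6.404 and 7.35 against 54.4 and 76.3 FPKM; log2 change 3.06 ± 0.16, adjusted p = 8.58e-06). Dhcr7, the reductase that turns 7-dehydrocholesterol into cholesterol, was called lower (36.05 and 34.3 against 14.2 and 27.7 FPKM, adjusted p = 0.0342), a call lost under 8 of 18 alternatives (adjusted p up to 0.141), and Ebp was not called. The synthase Hmgcs1 is listed at 0 in these 4 libraries and was not tested. Sqle and the demethylase Cyp51 are known to use molecular oxygen as a substrate.

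Antioxidant and glutathione genes were mostly higher, 21 of 30 against 5 lower. The glutathione transferase Gsta4 was at 8.14 and 8.56 FPKM in normoxia and 723 (A) and 281 (B) FPKM in hypoxia (log2 change 5.59 ± 0.38, adjusted p = 2.58e-05), with A 2.58-fold above B. Heme oxygenase Hmox1 rose 3.83-fold (51.6 and 55.8 against 239 and 172 FPKM), the ferritin light chain Ftl1 10.1-fold (276 and 269 against 2698 and 2830 FPKM) and catalase, Cat, 3.77-fold. Among the falls, mitochondrial Prdx3 fell 3.97-fold (107 and 102 against 24.98 and 27.6 FPKM) and Sod2 1.62-fold (17.8 and 18.1 against 10.8 and 11.3 FPKM). Txnrd1 (log2 change -0.73), Gpx4 (-0.50) and Prdx2 (-0.32) were also called lower. Those calls were lost under 7, 3 and 9 of 18 alternatives. Gsta1 and Gsta2, members of the same transferase family, went from under 1 FPKM to 210.2 (A) and 54.2 (B) and 51.4 (A) and 14.02 (B) FPKM. The Gsta, histone, Prl2c and ribosomal protein families, and Ldha with its pseudogenes, hold near-identical copies. How shared reads were assigned is not given in the sources used here, so levels of single members are uncertain.

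The largest rises over all genes, by the rule used for naming, were those of Gsta1, Sprr1a, Cxcl12, Gsta4, Krt19, Tinagl1, Cdhr1, Prl2c3, Prl2c2, Lce1g, Aire and Cdh17. Several are known from epithelia. Sprr1a, a cornified envelope precursor, was at 5.68 and 3.102 FPKM in normoxia and 351 (A) and 383 (B) FPKM in hypoxia (log2 change 6.13 ± 0.23, adjusted p = 1.87e-06) and the keratin Krt19 at 2.87 and 2.80 FPKM in normoxia and 161 (A) and 179 (B) FPKM in hypoxia (log2 change 5.48 ± 0.08, adjusted p = 1.17e-07). The intestinal cadherin Cdh17 was at 0.0194 and 0.0463 against 21.4 and 27.7 FPKM and the cornified envelope gene Lce1g at 0.441 and 0.141 against 30.5 and 40.6 FPKM. For these genes hypoxic A and B lay close together, with B the higher. Epithelial Cdh1, Krt8 and Krt5 were all under 0.7 FPKM in the 4 libraries and were not tested. The placental prolactin relatives Prl2c2 and Prl2c3, known as proliferins, went from under 0.1 FPKM to 20.3 (A) and 39.4 (B) and 21.1 (A) and 38.4 (B) FPKM.

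Matrix genes were mixed. Among collagens and their processing enzymes 14 of 26 (53.8%) were higher and 8 (30.8%) lower, against 38.1% and 28.5% of all genes tested. The fibrillar collagen Col3a1 rose 2.27-fold (349.6 and 308 against 948 and 540 FPKM), Col12a1 6.301-fold (20.9 and 21.04 against 144 and 119.9 FPKM) and the prolyl hydroxylase subunit P4hb 6.74-fold (226 and 207 against 1572 and 1341 FPKM), and Col1a1 was not called (47.3 and 41.9 against 36.4 and 38.2 FPKM; log2 change -0.25 ± 0.11, adjusted p = 0.0819). Basement membrane collagens fell: Col4a1 3.78-fold (51.1 and 49.7 against 7.602 and 19.1 FPKM), Col4a2 4.34-fold and Col15a1 from 5.71 and 5.27 to 0.0337 (A) and 0 (B) FPKM, but Col18a1, also of basement membranes, was called higher (14.4 and 12.96 against 16.6 and 32.5 FPKM), a call lost under 12 of 18 alternatives, among them without hypoxic B (adjusted p up to 0.186). The muscle laminin chain Lama2 fell 12.9-fold (14.7 and 15.6 against 1.27 and 1.07 FPKM) while the basement membrane linker Nid1 rose 4.03-fold (25 and 24.5 against 101 and 98.6 FPKM). Fibronectin, Fn1, rose 2.44-fold (328 and 311 against 813 and 748 FPKM) and Sparc 2.52-fold, and the small proteoglycan Bgn fell 3.11-fold.

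The growth factor Igf2 was nearly lost. Igf2, the insulin-like growth factor produced by differentiating myoblasts, was at 272 and 269 FPKM in normoxia and 0.531 (A) and 0.624 (B) FPKM in hypoxia (log2 change -7.43 ± 0.12, adjusted p = 1.17e-07). H19, the noncoding RNA next to Igf2, fell 29.4-fold (3250 and 2875 against 89.5 and 119 FPKM), the imprinted factor Peg3 5.504-fold (60.3 and 61.3 against 12.3 and 9.81 FPKM), and the imprinted inhibitor Cdkn1c 15.3-fold. Of the imprinted genes, Peg10 (7.48-fold, 1.46 and 1.54 against 13.3 and 9.201 FPKM), Ndn (11.6-fold, 0.917 and 0.904 against 10.04 and 11.2 FPKM) and Sgce (3.06-fold) rose, so imprinted genes did not share a direction. Among the binding proteins Igfbp5 fell (913 and 944 against 729 and 378 FPKM; call lost under 8 of 18 alternatives, adjusted p up to 0.13) and Igfbp2 (39.6 and 35.5 against 123 and 115 FPKM) and Igfbp6 rose. In the list of TGF-beta, BMP and Notch genes, 9 of 32 (28.1%) were higher and 12 (37.5%) lower, against 38.1% and 28.5% of all genes tested. The TGF-beta receptor Tgfbr2 rose 5.66-fold (18.7 and 18.1 against 116 and 92.3 FPKM) and the BMP antagonist Grem1 10.7-fold (11.4 and 9.65 against 113 and 113 FPKM). The ligands Tgfb2 and Tgfb3 fell 8.17-fold and 5.07-fold, the activin inhibitor Fst from 34.3 and 34.2 to 0.767 (A) and 5.55 (B) FPKM, and the Notch ligand Dll1 7.88-fold (13.5 and 13.2 against 1.18 and 2.22 FPKM).

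The study also profiled the repressive mark H3K27me3, and the genes for its writers and for DNA methylation were examined. Of 24 such genes 8 (33.3%) were higher and 4 (16.7%) lower, against 38.1% and 28.5% of all genes tested. The methyltransferase Ezh2 was at 7.07 and 7.08 FPKM in normoxia and 9.17 (A) and 23.3 (B) FPKM in hypoxia (log2 change 0.96 ± 0.35, adjusted p = 0.0474), near normoxia in A and 2.54-fold above A in B, and without replicate A or B its log2 change was 1.59 or 0.33. The call of Ezh2 was lost under 10 of 18 alternatives (adjusted p up to 0.157). The related Ezh1 (15.3 and 13.99 against 14.5 and 11.7 FPKM) and the core subunit Suz12 (13.4 and 13.1 against 15.3 and 21.4 FPKM) were not called. The chromobox genes Cbx6 (3.23-fold, 9.56 and 8.77 against 31.1 and 28.1 FPKM) and Cbx8 (2.81-fold) rose with A and B alike. The maintenance methyltransferase Dnmt1 (3.32-fold, 6.54 and 6.298 against 17.8 and 24.8 FPKM) rose in both replicates and was 1.396-fold higher in B than in A.

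**Figure D3:**
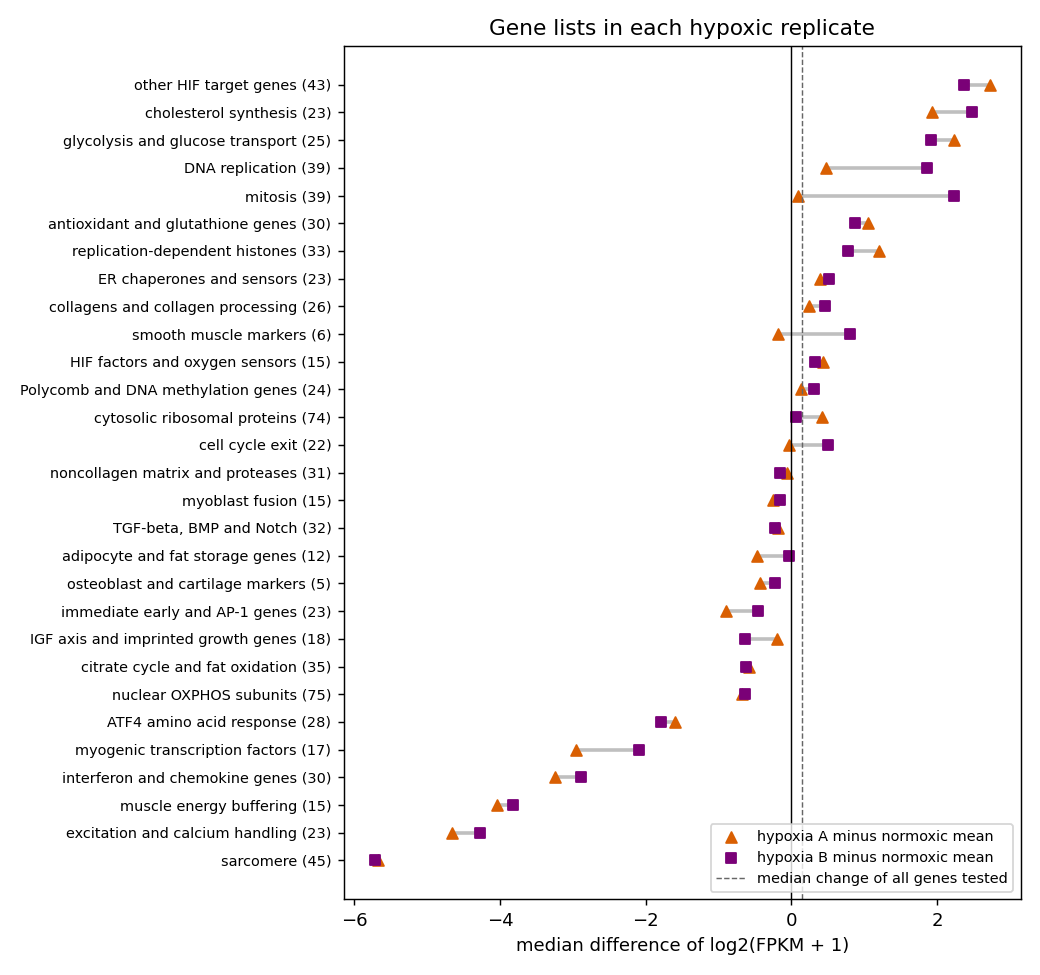
Median difference of log2(FPKM + 1) from the normoxic mean for the gene lists with at least 5 tested members, in hypoxia A (triangles) and hypoxia B (squares), with the number tested in brackets and the median change of all genes as a dashed line. The points of mitosis (0.10 and 2.23) and DNA replication (0.47 and 1.86) lie far apart, and those of the sarcomere (-5.68 and -5.72) coincide.

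The hypoxic replicates disagreed on the cell cycle. All 39 tested mitosis genes and all 39 DNA replication genes were higher in hypoxic B than in A, against 63.3% of all genes tested. The normoxic values of these genes lay close together, as the plot of differences between replicates shows. Over all genes, 546 (4.56%) lay more than 1 on the log2 scale higher in B than in A and 61 (0.510%) more than 1 higher in A. The 546 held 73 of the 78 members of the mitosis and replication lists. With 1 library on each side these are values, not tests.

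Relative to normoxia, replicate A showed little change in mitosis genes and replicate B a rise. The median of the mitosis list was 0.10 in A and 2.23 in B. Cdc20, which activates the anaphase-promoting complex, was at 6.28 and 6.59 FPKM in normoxia and 8.67 (A) and 68.99 (B) FPKM in hypoxia, 7.95-fold higher in B than in A. The kinases Aurka (2.35 and 2.32 against 5.19 and 41.1 FPKM) and Aurkb (3.098 and 3.01 against 4.695 and 35.4 FPKM), the spindle protein Gtse1 (2.38 and 2.42 against 10.8 and 81.6 FPKM) and the proliferation marker Mki67 (3.17 and 3.48 against 3.46 and 23.6 FPKM) had the same order. Of these 5 genes Cdc20, Aurka, Aurkb and Gtse1 were above both normoxic libraries in A as well, by less than in B, and Mki67 in A lay between the normoxic libraries. Ccnb2 (5.197 and 4.41 against 4.67 and 36.3 FPKM), Pbk (5.52 and 5.52 against 3.86 and 30.9 FPKM) and Spag5 (4.62 and 4.31 against 3.498 and 25.6 FPKM) were at or below normoxia in A. Cyclin B1, Ccnb1, was the only gene with at least 5 FPKM for which the replicates lay on opposite sides of both normoxic libraries by at least 1 on the log2 scale, at 6.58 and 6.17 FPKM in normoxia and 2.35 (A) and 15.7 (B) FPKM in hypoxia (log2 change 0.02 ± 0.64, adjusted p = 0.978), so its mean hid a fall in A and a rise in B. With both replicates 4 of the 39 mitosis genes (10.3%) were called higher and none lower, against 38.1% and 28.5% of all genes tested. Without replicate A the list's median log2 change was 2.23, and without replicate B 0.10, so the size of the change depended on a single library.

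DNA replication genes rose in part in A as well. The list's median was 0.47 in A and 1.86 in B, and 22 of 39 genes were called higher and 2 lower. The sliding clamp Pcna was at 48.4 and 51.5 FPKM in normoxia and 90.4 (A) and 156 (B) FPKM in hypoxia (log2 change 1.24 ± 0.23, adjusted p = 0.00266) and the factor E2f1 at 3.49 and 3.44 against 13.7 and 19.8 FPKM (log2 change 1.97 ± 0.16, adjusted p = 6.52e-05), each with both hypoxic replicates above normoxia. The helicase subunit Mcm5 (2.31 and 2.297 against 3.24 and 20.4 FPKM; log2 change 1.53 ± 0.65, adjusted p = 0.0751) was not called. E2f2 went the other way in both replicates, from 62.4 and 65.7 to 0.674 (A) and 2.58 (B) FPKM (log2 change -4.73 ± 0.31, adjusted p = 2.36e-05), and the uracil glycosylase Ung was lower (3.08 and 3.38 against 0.836 and 1.76 FPKM). The promoter of Cdc20 is shown as that of the mitosis gene with the largest difference between the replicates (chr4:118437344-118437593, minus strand, GRCm38.p6, from RefSeq), with CCAAT and TTTGAA, or their reverse complements, in capitals. CCAAT boxes and TTTGAA, the usual form of the cell cycle homology region, are known from promoters of mitosis genes.
Cdc20: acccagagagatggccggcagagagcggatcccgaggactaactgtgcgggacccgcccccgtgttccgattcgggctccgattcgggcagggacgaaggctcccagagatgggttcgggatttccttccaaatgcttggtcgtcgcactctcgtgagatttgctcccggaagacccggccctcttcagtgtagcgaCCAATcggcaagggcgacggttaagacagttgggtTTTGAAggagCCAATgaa

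CCAAT was present in 24 of 33 (72.7%) mitosis genes, 19 of 33 (57.6%) replication genes and 195 of 381 (51.2%) of the genes more than 1 higher in B, against 3282 of 8924 (36.8%) of all genes tested. Higher shares of CCAAT were found in cholesterol synthesis, 14 of 15 (93.3%), and in chaperones and sensors of the endoplasmic reticulum, 18 of 20. TTTGAA was present in 9 of 33 (27.3%), 4 of 33 (12.1%) and 63 of 381 (16.5%), against 894 of 8924 (10.0%). The mitosis list is contained in the set of genes higher in B, so its share and that of the set are not separate observations.

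**Figure D4:**
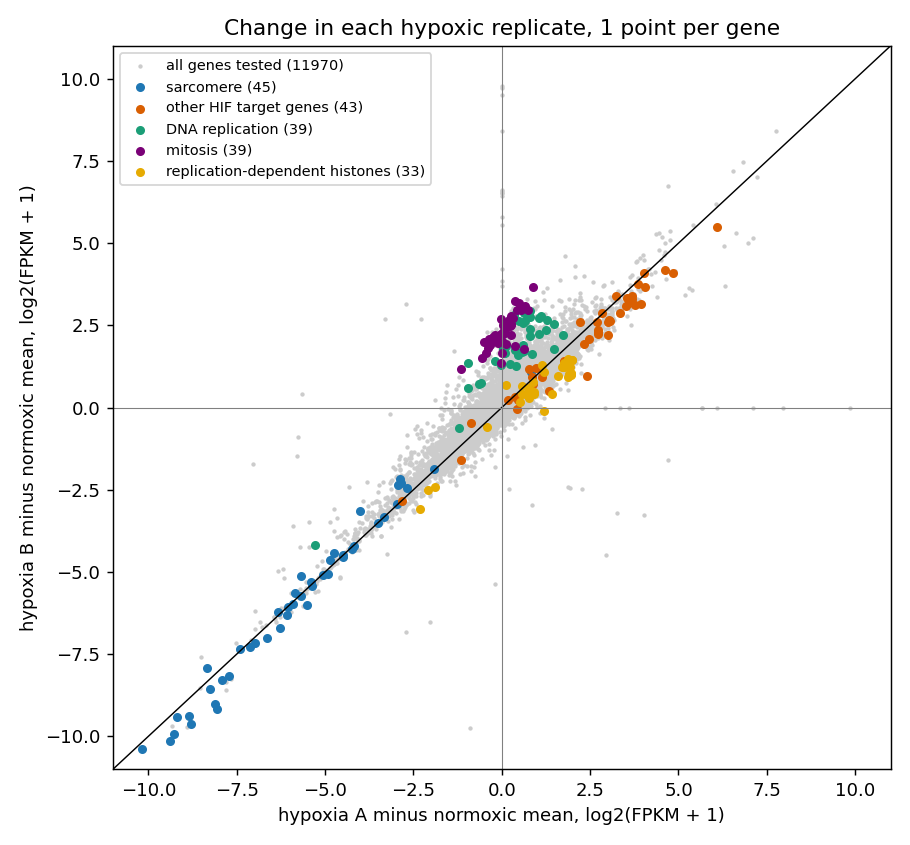
Difference from the normoxic mean of log2(FPKM + 1) in hypoxia A (x axis) and hypoxia B (y axis), with 1 point per gene, all 11970 genes in grey, 5 lists in colour and the line of equal change. Sarcomere and HIF target genes follow the line, mitosis and DNA replication genes lie above it and replication-dependent histone genes mostly below it.

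Replication-dependent histone genes, whose transcripts are known to accumulate during DNA synthesis, had the opposite order. Of 54 examined, 33 were tested, and 30 of these were higher in A than in B, against 36.0% of all genes tested. Against normoxia 23 were higher and 4 lower (median log2 change 0.92, with 1.20 for A and 0.77 for B). Hist1h2bc was at 47.5 and 50.5 FPKM in normoxia and 198 (A) and 136 (B) FPKM in hypoxia (3.42-fold), Hist1h2bg at 6.24 and 7.75 against 30.8 and 20.7 FPKM and Hist1h4i at 7.65 and 10.04 against 25.01 and 12.1 FPKM. The linker histone genes fell instead: Hist1h1c was at 164 and 185 FPKM in normoxia and 34.6 (A) and 19.5 (B) FPKM in hypoxia (log2 change -2.70 ± 0.24, adjusted p = 8.20e-05), and Hist1h1d and Hist1h1e fell 6.83-fold and 7.21-fold. Most of these transcripts lack a poly(A) tail, and the libraries were made from total RNA.

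In the list of cell cycle exit genes, 6 of 22 (27.3%) were higher and 6 (27.3%) lower, against 38.1% and 28.5% of all genes tested. The list also holds genes that do not themselves hold cells out of the cycle, such as Cdk4 and Mdm2. Its counts therefore give no direction for cell cycle exit. Cdkn1a, the p21 inhibitor that is induced on differentiation, was at 947 and 984 FPKM in normoxia and 257 (A) and 364 (B) FPKM in hypoxia (log2 change -1.66 ± 0.16, adjusted p = 1.47e-04) and Cdkn1c, the p57 inhibitor, at 87.99 and 106 against 9.18 and 3.48 FPKM (log2 change -3.85 ± 0.34, adjusted p = 9.26e-05). The retinoblastoma gene Rb1 fell 1.72-fold (17.1 and 18.4 against 7.81 and 12.8 FPKM), the cyclin Ccnd3 3.55-fold (318 and 309 against 84.97 and 91.5 FPKM) and the stress gene Gadd45a 9.31-fold (346 and 350.3 against 28.1 and 46.7 FPKM). The kinase Cdk4 (2.26-fold, 102 and 104 against 230.3 and 235 FPKM) and the cyclin Ccng2 (6.305-fold, 22.3 and 21.3 against 153 and 122 FPKM) rose alike in A and B. Mdm2 (28.1 and 28.02 against 49.2 and 99.2 FPKM), Ccng1 (17.8 and 18.9 against 66.2 and 146 FPKM) and Trp53inp1 (5.11 and 5.32 against 19.8 and 44.2 FPKM), all known as p53 targets, rose in both and were 2.02-fold, 2.197-fold and 2.23-fold higher in B than in A. The list's median of 0.11 was 0.50 without replicate A, and it turned negative without replicate B (-0.03) and after median-of-ratios scaling (-0.07).

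Smooth muscle and serum response genes also split the replicates. The smooth muscle actin Acta2 was at 397 and 393 FPKM in normoxia and 71.1 (A) and 252 (B) FPKM in hypoxia, the calponin Cnn1 at 0.177 and 0.198 against 0.580 and 3.82 FPKM, transgelin Tagln at 21.3 and 19.3 against 4.71 and 23.8 FPKM and the enteric actin Actg2 at 3.92 and 3.58 against 8.696 and 31.3 FPKM, with B above A by 3.54-fold, 6.59-fold, 5.06-fold and 3.599-fold. Summed over the 9 markers the level was 449 and 439.5 FPKM in normoxia and 144 (A) and 375 (B) FPKM in hypoxia. Of the defining smooth muscle genes, Myh11 was under 0.1 FPKM in all 4 libraries and Myocd at 0.0143 FPKM at most. Of 23 immediate early and AP-1 genes 12 (52.2%) were lower and 6 (26.1%) higher, against 28.5% and 38.1% of all genes tested. In this list 8 were more than 1 higher in B. Fos (15.6 and 12.04 against 1.505 and 4.36 FPKM), Egr1 (25.01 and 20.3 against 2.84 and 7.12 FPKM), Atf3 (53.6 and 49.98 against 5.23 and 14.03 FPKM) and Nr4a1 (33.8 and 27.4 against 2.05 and 5.54 FPKM) fell in both replicates and further in A. Fosl1 rose in both, further in B (10.3 and 7.34 against 16.8 and 43.3 FPKM), and Jun was low in A alone (70.2 and 69.2 against 35.6 and 78.3 FPKM). The matrix genes Ctgf (19.2 and 18.1 against 2.06 and 9.97 FPKM) and Cyr61 (78.4 and 61.5 against 52.6 and 114 FPKM), known as targets of the same mechanical and serum signals, had the same order.

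Fewer genes were higher in A. By the naming rule the largest differences were those of Scara5, Gsta1, Gsta2, Gsta4, Ly6c2, Dcn, Mgp, Sprr2k, Clu, Avil, Igfbp4 and Phyhd1. Scara5, a ferritin receptor, was at 20.1 and 19.1 FPKM in normoxia and 54.5 (A) and 12.1 (B) FPKM in hypoxia (log2 change 0.39 ± 0.58, adjusted p = 0.569), above normoxia in A and below it in B. The proteoglycan decorin, Dcn (6.83 and 4.58 against 12.9 and 4.901 FPKM), was above normoxia in A alone. Mgp, an inhibitor of calcification, was above normoxia in both (5.31 and 7.18 against 33.2 and 13.9 FPKM), and Igfbp4 (37.5 and 34.8 against 14.1 and 6.18 FPKM) and Ly6c2 (23.1 and 22.3 against 13.1 and 4.56 FPKM) were below it in both. Genes of the cytosolic ribosome shared this order at a smaller size. Of 74, 72 were higher in A than in B. Against normoxia 21 (28.4%) were called higher and 3 (4.05%) lower, beside 38.1% and 28.5% of all genes tested. The median log2 change was 0.06 without replicate A and 0.42 without B. After median-of-ratios scaling 2 were called higher and 6 lower, so no direction holds for the ribosomal genes. Rps27 (7.49 and 78.7 against 671 and 7.69 FPKM), Rpl26 (22.7 and 459 against 199 and 46.9 FPKM) and Rpl34 (112 and 569.6 against 383 and 110.2 FPKM) differed widely between replicates of both groups.

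**Figure D5:**
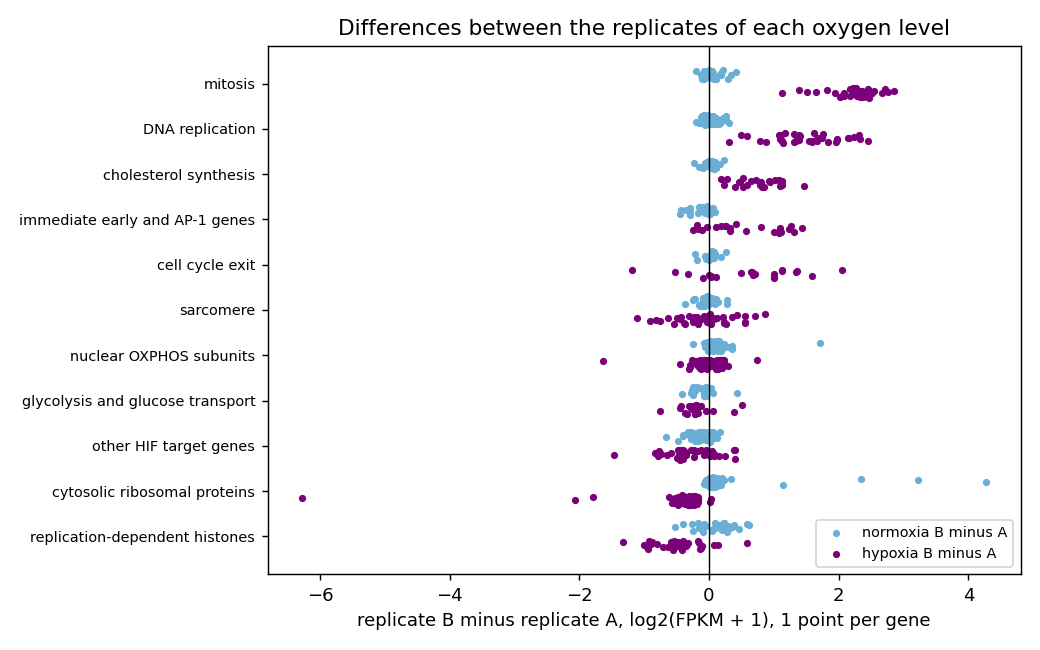
Replicate B minus replicate A of log2(FPKM + 1) for the genes of 11 lists, with 1 point per gene, in normoxia (blue) and in hypoxia (purple). In hypoxia all mitosis, DNA replication and cholesterol synthesis genes lie right of 0 and most ribosomal and histone genes left of it, while most normoxic points lie near 0.

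Counted over all genes, 317 lay at least 1 above the normoxic mean in B and within 0.5 of it in A, of which 81 were called by the test on both replicates and 45 belong to the 2 cell cycle lists. The reverse, at least 1 above in A and within 0.5 in B, held for 21 genes. At least 1 below normoxia in A and within 0.5 in B were 95 genes, and 10 were so in B alone. The muscle, interferon, amino acid response, HIF target, glycolytic and cholesterol lists kept their direction without either hypoxic replicate. The medians, each without A and without B, were -5.72 and -5.68 for the sarcomere, -2.88 and -3.25 for interferon genes, -1.79 and -1.60 for the amino acid response, 2.37 and 2.72 for HIF targets, 1.91 and 2.23 for glycolysis and 2.47 and 1.93 for cholesterol synthesis. Leaving out one hypoxic library leaves the value of the other, so these medians repeat those of each replicate and add no further evidence.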

How the data were processed

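RNA-seq was done on C2C12 cells with a stranded total RNA protocol from 500 ng of RNA, per the labels' protocols. The authors deposited a table of FPKM per gene symbol, and the submitters' processing notes name STAR 2.5.1b, Cufflinks 2.2.1 and the build mm9. Whether strand was used in counting, and which annotation, is not given in the sources used here. The values are not whole numbers and keep relative depth only, so no count test was run. Values were used as log2(FPKM + 1) and fitted with limma 3.58.1 (R 4.3.3) with a trended variance prior over all 8 RNA-seq libraries and 4 group means, leaving 4 residual degrees of freedom beside 2.659 prior ones. Tests are two-sided with Benjamini-Hochberg adjustment over 11970 genes. The fit was tested on simulated data. Whether replicate letters paired libraries across oxygen levels is not given in the sources used here, and the main fit used no pairing. The differences between B and A correlated at 0.004 between the oxygen levels over all genes tested, which cannot decide this. Most HIF target and glycolytic genes lay higher in A than in B in both pairs.

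Gene lists, and the genes described, were chosen with earlier results of these data known, so no list is independent evidence of its direction. The rule for named genes took the 3 largest called changes in each list with at least 10 FPKM and no overlap between libraries, the 12 largest rises and 12 largest falls without small RNA and predicted genes, the 12 largest differences in each direction between hypoxic A and B, any gene of at least 5 FPKM with A and B on opposite sides of both normoxic libraries by at least 1 on the log2 scale, and a fixed set that includes Vegfa, Mki67 and Col1a1. Further list members named as examples were chosen for their role after their values were seen. Most list members enter the counts only, and the text gives a subset of the genes the rule took. Promoters are the 250 bases before the first listed RefSeq start (GRCm38.p6), matched by symbol for 8924 of the 11970 genes, and no coordinates of the authors' build are given.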

Additional observations from a re-analysis of the deposited data

How the results depend on the processing

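With 2 libraries a group, the comparison rests on a spread shared with the growth medium libraries. Leaving out 1 library leaves its group no spread of its own, so calls made that way rest on the spread of the other groups. The 4562 higher and 3409 lower genes became 1835 and 1589 when a log2 change of at least 1 was also required. The share of calls that are higher, 57.2%, was 46.4% after median-of-ratios scaling, with 3692 higher and 4272 lower. Leaving out each of the 8 libraries in turn gave 3562 to 5247 higher and 2775 to 3805 lower genes and 53.9% to 61.3% of calls higher. With the replicate letter as a block (replicate block) 4430 genes were higher and 3296 lower, a share of 57.3%. Of the genes described, Col18a1 and Prdx2 lost their calls with the replicate block. All other alternatives kept both counts within 1.5 times. Of 124 called named genes 12 lost the call under at least 1 of 18 alternatives, most often without normoxic A (11), without normoxic B (10) and with only the 4 differentiation medium libraries (10), and none reversed. Those genes were Acta2, Actg2, Aurka, Avil, Cep55, Cks2, Gtse1, Ly6c2, Mgp, Rad51ap1, Rpl27a and Rpsa. Of all 627 called genes of the lists and the rule, 121 lost the call under at least 1 alternative and none reversed. Further genes of the text among them were Col18a1, Hist1h4i, Ndufb10, Ezh2, Rapsn, Dhcr7, Igfbp5, Rb1, Ctgf, Fosl1, Ern1, B2m, Hif1a and Tfrc. Ckap5, Txnrd1, Gpx4 and Prdx2 also belong to them. In all of these but Ndufb10 leaving out a normoxic library was enough, and Ndufb10 lost its call after median-of-ratios scaling. Signs that turned were those of uncalled genes and of 2 list medians. Leaving out hypoxic B or A, in this order, the log2 change was -0.028 or 2.69 for Ccnb2, -0.425 or 2.29 for Pbk, -0.280 or 2.28 for Spag5, -0.165 or 0.404 for Ddit3, -1.14 or 1.18 for Ccnb1, 1.43 or -0.651 for Scara5, 1.07 or -0.163 for Dcn and 0.423 or -0.050 for Vegfa. In the same order the median was -0.027 or 0.497 for cell cycle exit and -0.181 or 0.807 for smooth muscle markers. After median-of-ratios scaling it was -0.166 for Ccnb1, -0.021 for Vegfa, -0.087 for Ddit3 and -0.068 for the cell cycle exit median. Ccnb1 was also at -0.056 with a pseudocount of 0.1, -0.035 with upper-quartile scaling and -0.018 without normoxic B. The tally over all list members and the count of genes moved in 1 hypoxic replicate were chosen after the data were seen. FPKM without counts give no interval for counting error, and levels under about 0.5 FPKM are read here only as near 0.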

Other observations

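Genes of fat storage moved in both directions. Of 12 tested, 5 (41.7%) were higher and 5 (41.7%) lower in hypoxia, against 38.1% and 28.5% of all genes tested. The level summed over the 21 genes of the list was 338 and 341 FPKM in normoxia and 623 (A) and 773 (B) FPKM in hypoxia. The lipid droplet protein Plin2 rose 5.52-fold (40.6 and 39.2 against 179 and 262 FPKM; log2 change 2.41 ± 0.17, adjusted p = 2.90e-05), the fatty acid synthase Fasn 4.21-fold (12.6 and 12.3 against 37.8 and 67.3 FPKM) and the desaturase Scd2 3.08-fold (112 and 115 against 343 and 356 FPKM), while Scd1 fell 2.38-fold (102 and 103 against 34.5 and 51.5 FPKM) and lipoprotein lipase Lpl fell from 13.3 and 14.2 to 0.291 (A) and 0.319 (B) FPKM. The fat cell hormone gene Adipoq was at 0.133 FPKM at most. Among bone and cartilage genes, osteocalcin Bglap fell from 93.05 and 75.5 to 0.949 (A) and 6.66 (B) FPKM and the cartilage factor Sox9 rose 2.73-fold (8.74 and 8.16 against 26.5 and 19.7 FPKM), and cartilage Acan and Col2a1 were under 0.6 FPKM. The level summed over the 17 genes of that list was 157 and 141 FPKM in normoxia and 67.5 (A) and 71.99 (B) FPKM in hypoxia. Whether other cell types had a part in these values was not tested.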
